A study of Rattus norvegicus with 22 samples.

Results

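Kallikrein-related peptidases are secreted serine proteases whose genes stand next to each other in a single cluster, on chromosome 1 in the rat. Described here are 5 of them that squamous epithelium is known to make, Klk6, Klk7, Klk8, Klk10 and Klk11, in OSCC (oral squamous cell carcinoma) and normal tissue of the rat tongue. The members were taken by the gene name printed on the array. All 5 were found, among 26583 named genes or transcripts, by 6 probes in all, because Klk7 had a second probe. The brightest probe over all arrays was used for each gene.

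The samples were 22 one-color arrays, from 11 male F344 rats whose age the labels give as 33 weeks. Each rat gave a piece of OSCC and a piece of phenotypically normal tongue near it. The carcinogen 4-NQO (4-nitroquinoline-1-oxide) had been given to these rats for 10 weeks, at 20 ppm in their water, and tissue was taken at 23 to 26 weeks after the first exposure. The labels call every array untreated and give the normal pieces no treatment, whereas the protocol takes both pieces from the same 4-NQO-treated animals, so the normal pieces are not tissue of unexposed rats. Labels name the animals by number (4, 9, 11, 13, 16, 17, 21, 22, 24, 25 and 26), and the same numbers are used below.

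In skin and oral mucosa, kallikreins are made as inactive precursors and are cut to the active form by other proteases or by each other. Klk7 is chymotrypsin-like and, with trypsin-like relatives, cuts the proteins of desmosomes as dead squamous cells are shed. Inhibitors of the Spink family, of which Spink5 is the best known, hold them in check, and protease-activated receptors are among their targets on the cell surface. Members of the Klk1 branch of the family are instead known from the salivary glands, which is why the members were set against both gland genes and squamous genes.

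The probes are printed here because closely related genes can share sequence, and the readings are only as specific as the probes. Each is 60 bases long, 5′ to 3′ as the array annotation gives it, and capitals mark the longest run that it shares with any probe of another kallikrein on the array. The Klk6 probe lies at chr1:94261274-94261333, the Klk7 probe at chr1:94245825-94245884 and the Klk8 probe at chr1:94233905-94233964 of assembly rn4. The Klk10 probe spans 427 bases of the genome, chr1:94213733-94214159, so that it bridges more than its own length. The Klk11 probe lies at chr1:94208588-94208647 and is not printed.
Klk6: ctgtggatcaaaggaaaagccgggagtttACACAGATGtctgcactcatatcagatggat
Klk7: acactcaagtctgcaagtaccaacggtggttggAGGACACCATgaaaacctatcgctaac
Klk8: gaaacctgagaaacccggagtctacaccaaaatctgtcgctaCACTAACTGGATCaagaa
Klk10: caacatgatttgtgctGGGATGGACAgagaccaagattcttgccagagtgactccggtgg
The longest shared run was 9 bases for Klk6, 10 for Klk7, 13 for Klk8, 10 for Klk10 and 8 for Klk11, against 24 or 25 other kallikrein probes. None of the 5 probes thus shared more than 13 unbroken bases with another kallikrein probe. Whether the probes bind transcripts of other kallikreins outside those probe sequences was not tested.

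Levels are log2 of the processed signal minus the 75th percentile of the array, so that a level of 0 is the brightness of the probe at that percentile. Differences are OSCC minus normal on the same log2 scale, from a limma model that blocks on the rat, and p-values are adjusted over 30367 probes by Benjamini-Hochberg. The rule for a call asked for both an adjusted p under 0.05 and 2-fold change or more. With this rule 4201 probes were called (13.8%), 2083 of them higher (6.86%) and 2118 lower (6.97%). The median difference of all probes was -0.24, and differences of the members are read against that shift. Tissue pieces hold a mixture of cells, and fewer cells of a type cannot be told apart from less RNA per cell.

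Some pieces stood apart. The 75th percentile of the signal ran from 236.8 to 654.9 in normal pieces and from 338.7 to 1414.0 in OSCC pieces, and 48.42% to 65.49% of probes per array were well above background. The keratins Krt4, Krt13, Krt5 and Krt14, which mark the squamous lining of the tongue, were well above background in all 22 pieces. The OSCC piece of animal 24 had the lowest mean level of squamous basal genes (-0.38, against 0.86 to 2.64 in the other OSCC pieces) and of squamous differentiation genes (0.78, against 2.63 to 3.52). Skeletal muscle genes averaged 7.41, 6.76 and 7.28 in the OSCC pieces of animals 21, 22 and 24, above the highest of the other OSCC pieces (5.43). All normal pieces were scanned on the first day and 9 of the OSCC pieces on the second, and no slide held both tissues. The OSCC pieces of animals 4 and 9 were scanned on the first day, so only these 2 pairs compare the tissues within a day.

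Klk6, Klk7 and Klk10 rose in OSCC, and Klk8 and Klk11 were not called. The call was thus made for 3 of 5 members, all higher, where 6.86% of all probes were called higher. Many of those probes were dim. Among the 18287 probes that passed the filter on dim probes, 3792 were called in either direction, and 3 members were called there as well. Klk6 was tabulated by the study among rising genes from these same pairs, so its rise is not independent of that choice. Klk6, Klk7 and Klk10 were each higher in the OSCC piece of 11 of 11 rats. Klk11 was lower in 10 of 11 rats but fell short of the 2-fold rule, and Klk8 did not differ beyond its error.

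**Figure D1:**
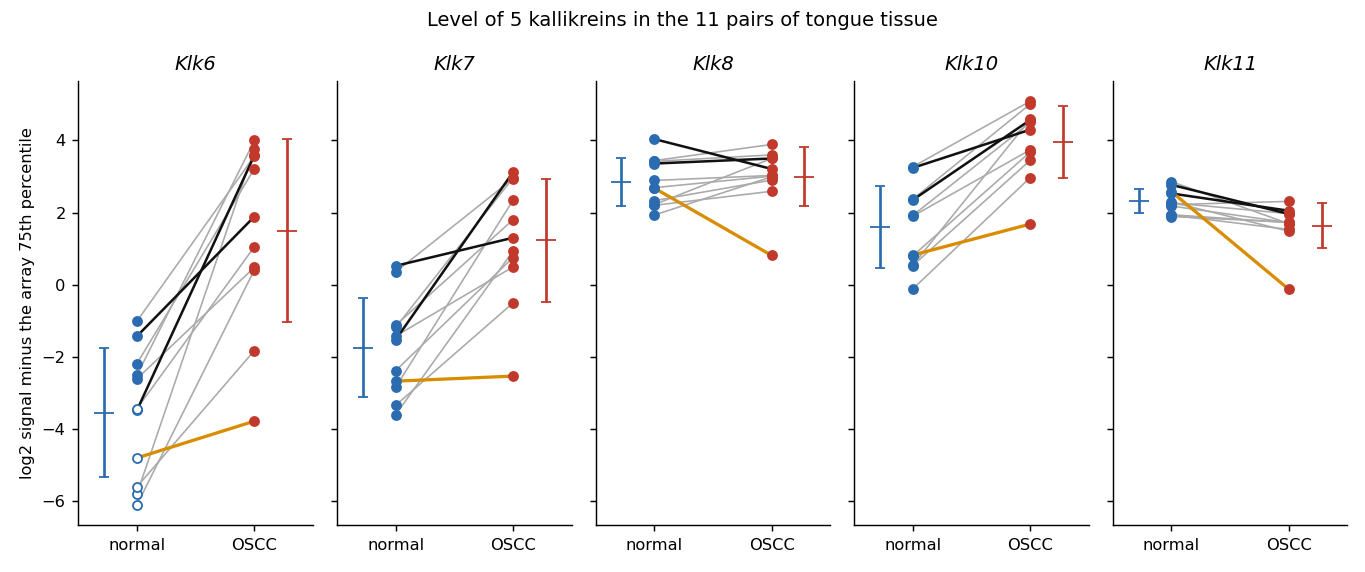
Level of each gene (log2 signal minus the 75th percentile of the array, vertical axis) in the normal piece (blue) and the OSCC piece (red) of each of 11 rats, joined by a line; open circles are values not well above background, black lines are animals 4 and 9, whose pieces were scanned on the same day, the orange line is animal 24, and bars at the sides give the mean ± SD. Klk6, Klk7 and Klk10 climb in every rat, whereas Klk8 is level (median 2.69 in normal and 3.03 in OSCC), and among OSCC pieces that of animal 24 is the lowest for all 5 genes.

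Klk6, a trypsin-like kallikrein with known targets in the matrix and among protease-activated receptors, showed the widest span. In normal pieces its level was lowest at -6.11 (animal 21), -3.44 at the median and -1.01 at the highest (animal 16), and it was well above background on 6 of the 11 arrays. In OSCC pieces it was -3.79 at the lowest (animal 24), 1.89 at the median and 4.00 at the highest (animal 26), and was well above background on all 11. The OSCC level exceeded the highest normal level in 9 rats, and the exceptions were the OSCC pieces of animals 22 (-1.83) and 24. The mean was -3.55 ± 1.79 (SD, n = 11) in normal tissue and 1.49 ± 2.54 in OSCC, a difference of 5.03 ± 0.63 (SE) with a limma adjusted p of 0.00026. In the 6 rats whose normal piece was well above background the within-rat rise ran from 3.09 (animal 17) to 7.07 (animal 9), and in the other rats the difference was taken from a normal reading at background level. Because many normal readings were dim, the size of this rise depended on how background was handled: with normexp background correction it was 3.36.

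Klk7, the chymotrypsin-like member, was well above background in all 22 pieces. Its normal level was -3.61 at the lowest (animal 21), -1.53 at the median and 0.52 at the highest (animal 4). Its OSCC level was -2.54 at the lowest (animal 24), 1.30 at the median and 3.12 at the highest (animal 9). The ranges overlapped, with 8 OSCC pieces above the highest normal piece. The mean rose from -1.75 ± 1.37 to 1.23 ± 1.71 (SD, n = 11), by 2.99 ± 0.44 (SE), which is 7.93-fold with a limma adjusted p of 0.00053. The within-rat rise was smallest in animal 24 (0.14) and largest in animal 11 (5.20). With normexp the mean rise was 2.11. The second Klk7 probe, at chr1:94246652-94246711, gave a smaller rise of 1.38 ± 0.48 (2.61-fold, limma adjusted p = 0.035), in 9 of 11 rats.

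Klk10, a kallikrein whose physiological targets are little known, rose with the smallest standard error of the 3 called members. Its normal level was -0.12 at the lowest (animal 22), 1.90 at the median and 3.27 at the highest (animal 16), and its OSCC level was 1.68 at the lowest (animal 24), 4.30 at the median and 5.09 at the highest (animal 16). The OSCC level was above every normal level in 9 rats, all but animals 22 (2.97) and 24. The mean rose from 1.60 ± 1.15 to 3.96 ± 1.01 (SD, n = 11), a difference of 2.36 ± 0.26 (SE), 5.14-fold with a limma adjusted p of 0.00017. The within-rat rise ran from 0.86 in animal 24 to 4.06 in animal 11.

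Klk8, a trypsin-like kallikrein of skin and brain, overlapped almost wholly between the tissues. In normal pieces it was 1.93 at the lowest (animal 22), 2.69 at the median and 4.04 at the highest (animal 4). In OSCC pieces it was 0.81 at the lowest (animal 24), 3.03 at the median and 3.89 at the highest (animal 13). The mean difference was 0.17 ± 0.25 (SE, limma adjusted p = 0.58), positive in 9 rats and negative in animals 4 (-0.83) and 24 (-1.87). Its sign was not stable to the scaling, since it was -0.03 when arrays were scaled to their medians.

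Klk11, a trypsin-like member found in many glandular and squamous epithelia, was the only member whose mean was lower in OSCC. Its normal levels were held within a narrow range, with 1.89 the lowest (animal 25), 2.27 the median and 2.86 the highest (animal 13). Its OSCC levels were -0.13 at the lowest (animal 24), 1.72 at the median and 2.31 at the highest (animal 21), and 7 of them lay below the lowest normal level. The difference was -0.67 ± 0.22 (SE, limma adjusted p = 0.028), lower in 10 of 11 rats, and at 1.6-fold it was under the 2-fold rule. The fall was largest in animal 24 (-2.70), and without that rat the difference was -0.47 (limma adjusted p = 0.014). The adjusted p was above 0.05 without animal 4 (0.055), 11 (0.055) or 13 (0.06), with slide as a random block (0.081), with only the pairs scanned on different days (0.089) and with scan day as a term (0.39).

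The pairs scanned within a day moved the same way as the rest for the called members. In animals 4 and 9, in that order, Klk6 rose by 3.32 and 7.07, Klk7 by 0.79 and 4.65 and Klk10 by 1.06 and 2.22. Klk8 differed by -0.83 and 0.15 in these rats, and Klk11 by -0.81 and -0.47. With scan day as a term, where those 2 pairs carry the estimate, the differences were 5.19 for Klk6, 2.72 for Klk7 and 1.64 for Klk10, and no member was called (limma adjusted p = 0.085, 0.098 and 0.088). Without animals 21, 22 and 24, whose OSCC pieces were high in muscle genes, the differences were 5.50, 3.17 and 2.39 for the same genes, and these 3 remained called.

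Whether the members moved by different amounts in the same rats was asked of all 10 pairs of members, by an exact two-sided sign-flip permutation test with Benjamini-Hochberg adjustment. Of these, 9 passed. Klk6 rose by more than Klk7 in 11 of 11 rats, with a mean difference of 2.04 (exact p = 0.000977, the smallest this design allows; adjusted 0.00122), and by 2.67 more than Klk10. With normexp these gaps were 1.25 and 1.08, and both still passed (adjusted exact permutation p = 0.00244 and 0.0326). The study tabulated Klk6 among rising genes from these same pairs. Comparisons that involve Klk6 are thus not independent of that choice. Klk8 and Klk11, which lie on opposite sides of 0, differed by 0.84, with Klk8 the higher in 10 of 11 rats (adjusted p = 0.00217, exact permutation). Klk7 and Klk10 were not separated, at 0.62 in favor of Klk7 in 8 of 11 rats (exact permutation p = 0.0547, the same after adjustment). Each gene is read here by a single probe, and the gaps depend on it: the probes of Klk7 alone gave 2.99 and 1.38, and the second is below the 2.36 of Klk10.

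The other kallikreins of the cluster give the setting for these changes. Of 11 others named on the array, 5 rose, 2 fell and 4 were not called. In the run of squamous kallikreins next to the members, Klk9 rose by 2.16 ± 0.31 (SE, limma adjusted p = 0.00049) in 11 of 11 rats, Klk14 by 2.14 ± 0.51 (0.0066) and Klk12 by 1.48 ± 0.33 (0.0043), the last 2 in 10 of 11. Klk13 differed by 0.62 ± 0.28 (0.083). Genes that rose therefore stood beside genes that were not called: Klk11 lies between Klk12 and Klk10, and Klk8 between Klk9 and Klk7.

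**Figure D2:**
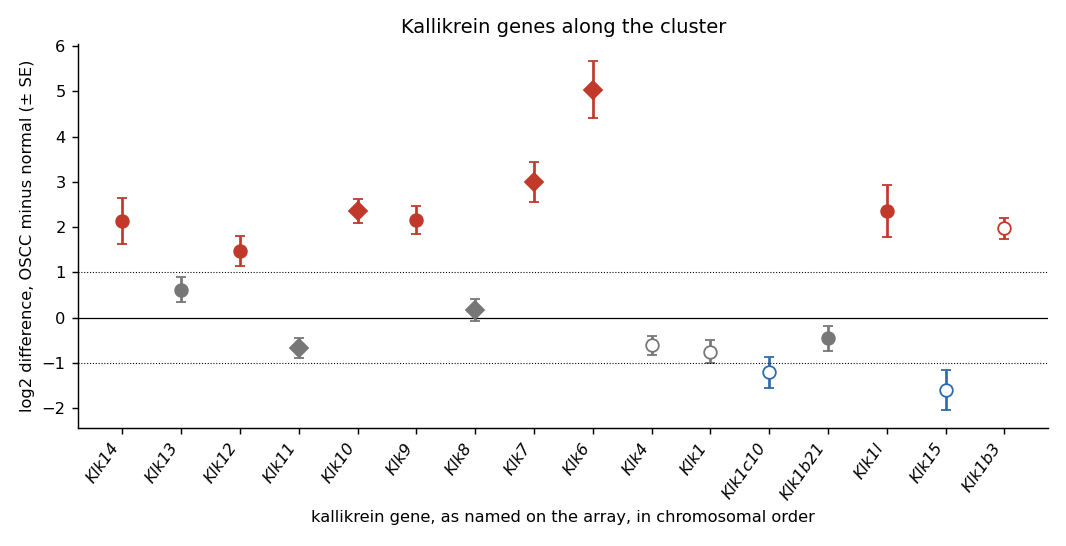
Log2 difference of OSCC minus normal (vertical axis, ± SE, n = 11 pairs) for 16 kallikreins, as named on the array and in their order along the chromosome; diamonds are the 5 members, red is called higher, blue called lower, gray not called, open circles are genes well above background on no array of at least 1 tissue, and dotted lines mark 2-fold. Klk6 stands highest at 5.03, while Klk11 (-0.67) and Klk8 (0.17) sit among neighbors that rose.

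The other genes of the cluster, tissue kallikreins of the Klk1 branch among them, were mostly dim. The probe named Klk1l, whose accession is now called Klk1, the tissue kallikrein of salivary gland, rose by 2.35 ± 0.58 (limma adjusted p = 0.0083) in 9 of 11 rats. Klk1b3 was called higher (1.97 ± 0.24, 0.00024) but was well above background on no normal array, and its lower limit did not reach 1-fold. Klk15 (-1.60 ± 0.45, 0.015) and Klk1c10 (-1.21 ± 0.35, 0.017) were called lower, from 4 and 1 normal arrays well above background and no OSCC array, and their lower limits did not reach 1-fold either. Neither was called with normexp or with only the pairs scanned on different days, and the filter on dim probes removed both. Klk1b21 differed by -0.46 ± 0.28 (0.18), and the probes named Klk4 and Klk1 (the accession of the latter is now Klk1c12) were well above background on no array.

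Proteins that hold kallikreins in check or act before them were looked at as lists written from general knowledge. Of 9 inhibitor genes on the array, 4 rose, 1 fell and 4 were not called. Their median difference was 0.73, against -0.24 for all probes and 0 for the probes that passed the filter on dim probes. Spink5, the inhibitor of epidermal kallikreins, rose by 1.45 ± 0.43 (limma adjusted p = 0.02) in 11 of 11 rats, from a mean of 2.59 to 4.05. Its within-rat rise ran from 0.02 in animal 9 to 4.8 in animal 21, with a median of 0.97. The inhibitor Wfdc5 rose by 1.62 ± 0.46 (0.017), the serpin Serpina3n by 2.28 ± 0.37 (0.00084) and the broad protease trap A2m by 2.66 ± 0.73 (0.014), while Spink8 fell by 1.16 ± 0.35 on the log2 scale (0.021). Of 9 activators and related proteases, 3 rose, 1 fell and 5 were not called (median 0.13). Those that rose were the membrane-bound Tmprss11e (2.89 ± 0.33, limma adjusted p = 0.00018) and Tmprss11d (1.48 ± 0.32, 0.0039), each in 11 of 11 rats, and Prss22 (1.88 ± 0.44, 0.006). Tmprss11e was well above background on 1 normal array and 10 OSCC arrays, so its difference rests mostly on normal readings at background level. Hpn, hepsin, fell by 1.30 ± 0.42 (0.028), and the epidermal activators St14, matriptase, and Prss8, prostasin, differed by 0.12 and 0.01.

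Of 11 substrates and receptors, 6 rose and 5 were not called (median 1.21). The desmosomal cadherins Dsc1 (2.30 ± 0.48, limma adjusted p = 0.0032) and Dsg1b (1.21 ± 0.30, 0.0089), which join squamous cells to each other, rose, as did filaggrin, Flg (1.89 ± 0.66, 0.037). The cytokine Il1b, also tabulated by the study from these samples, rose by 4.17 ± 0.73 (0.0013) and the thrombin receptor F2r by 1.71 ± 0.33 (0.0021). Camp, the precursor of a neutrophil and epithelial peptide, was called higher (1.63 ± 0.35, 0.0035) but only as a dim gene, well above background on no normal array. All 12 neutrophil genes listed were called higher, and their summed level ran from 0.43 to 2.44 in normal pieces and from 1.67 to 8.65 in OSCC pieces; their part in the rise of Il1b and Camp was not tested. The protease-activated receptor F2rl1 differed by 0.33 ± 0.17 (0.13).

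The squamous and gland lists were used to ask which of them each member follows. Of 28 squamous differentiation genes on the array, 6 rose, none fell and 22 were not called (median 0.36), led by Sprr1b (2.40), Sprr3 (2.20), Krt10 (1.66) and Krt78 (1.35), of which Krt10 was also tabulated by the study from these samples. The rise was uneven among rats. The list mean differed by 1.81, 2.42 and 2.0 in animals 11, 21 and 22, whose normal pieces had the lowest means. In the other rats it differed by -1.0 to 0.51. OSCC pieces above the highest normal piece numbered 8 for Sprr1b, 1 for Krt10 and 0 for Sprr3 and Krt78. Of 15 squamous basal genes, 3 rose, among them Itga6 (1.77) and Cdh3 (1.07), and Krt15, which the study also tabulated from these samples, fell by 2.54 on the log2 scale, while 11 were not called. Of 12 genes of squamous junctions, 4 rose, the connexins Gjb2 (2.75) and Gjb6 (1.50) and the desmosomal genes Dsc2 (1.49) and Dsg3 (1.07). Of 38 gland genes, 17 rose, 1 fell and 20 were not called (median 1.37). The largest fitted differences were of genes below background in normal tissue, for which only a lower limit is given: Aqp5, a water channel, rose at least 7.49-fold, Bpifa2 and Bpifa2f, secreted salivary proteins, at least 6.59-fold and 6.01-fold, and Gp2 at least 6.1-fold. In all, 20 of the 38 gland genes were well above background on no normal array. The gland list holds Lyz2, which is also a macrophage gene.

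Gland genes varied among OSCC pieces from a mean level of -4.18 (animal 25) to 0.82 (animal 17). Pearson's r with the gland mean was -0.09 for Klk6 over 11 OSCC pieces. For the others it was 0.19 (Klk7), 0.28 (Klk8), 0.16 (Klk10) and 0.42 (Klk11) over 10 pieces, because the piece of animal 24 lay apart by a gap of more than 0.3 of the range and was left out. None of these passed (permutation p adjusted over 15 relations from 0.65 to 0.84, Spearman's rho -0.05, 0.26, 0.55, 0.28 and 0.49 in the same order, adjusted 0.47 to 0.92). Leaving out the 2 pieces farthest from the median of the gland mean, those of animals 17 and 16, gave r of -0.20, 0.43, 0.42, 0.19 and 0.70. The pieces with the lowest mean of this list were those of animals 25, 22, 26 and 13. Their gland means differed by -0.34 to -0.05 from the normal pieces of the same rats. In each of these rats Klk6, Klk7 and Klk10 were higher in OSCC. Of the gland genes, 20 were well above background on no normal array. The 75th percentile subtracted from each array was higher in OSCC in animals 25 (1062.5 against 299.8), 26 and 13, and lower in animal 22. A background reading therefore need not have the same level in both pieces of a rat. These gland means alone cannot show whether the pieces held more gland tissue than normal. In the same pieces the mean of 9 serous gland genes, a list the study chose on these samples, was higher in OSCC by 1.68 (animal 25), 3.46 (animal 22), 1.37 (animal 26) and 7.0 (animal 13).

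**Figure D3:**
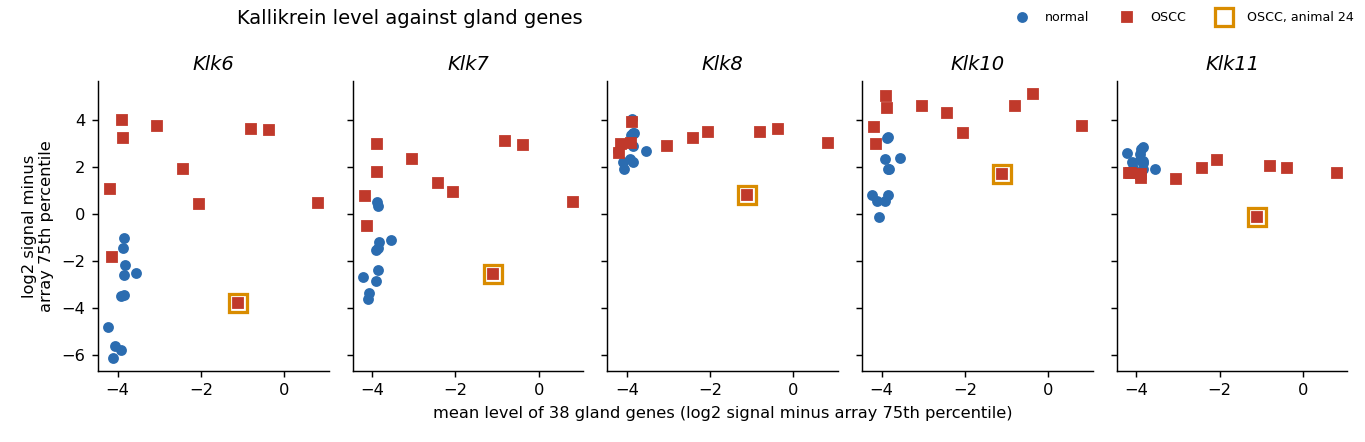
Level of each gene (vertical axis, log2 signal minus the 75th percentile of the array) against the mean level of 38 gland genes (horizontal axis, same scale) in 11 normal pieces (blue circles) and 11 OSCC pieces (red squares); the box marks the OSCC piece of animal 24. The OSCC pieces spread from -4.18 to 0.82 in gland level and r with the members runs from -0.09 to 0.42, which did not pass.

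With squamous differentiation genes, r among 10 OSCC pieces without animal 24 was 0.33 for Klk6, 0.27 for Klk7, 0.37 for Klk8, 0.35 for Klk10 and 0.21 for Klk11 (permutation p adjusted from 0.65 to 0.74; rho 0.45, 0.25, 0.04, 0.36 and 0.04, adjusted 0.47 to 0.92). The differentiation mean hardly varied there, from 2.63 to 3.52. Leaving out animals 25 and 26 as well, the farthest from the median, gave 0.15, 0.13, 0.04, 0.01 and 0.63. With squamous basal genes r was 0.73 for Klk6, 0.62 for Klk7 and 0.62 for Klk10, and -0.04 and -0.40 for Klk8 and Klk11. The largest, Klk6, had an unadjusted permutation p of 0.018 and an adjusted p of 0.27 (rho 0.62, adjusted 0.47), so that none of the 15 relations of OSCC levels passed. Without animals 22 and 17 the first 3 values were 0.38, 0.14 and 0.26, and those of Klk8 and Klk11 were -0.44 and -0.89. No p-value was computed for these. With the piece of animal 24 included, r with the differentiation genes was 0.73 to 0.90 for the 5 members, and this relation rests on that piece. For the within-rat differences, r with the differentiation genes was 0.92 for Klk10 over 8 rats, which passed (permutation adjusted p = 0.015), and 0.65 for Klk6, 0.71 for Klk7, 0.72 for Klk8 and 0.01 for Klk11 over 7 or 8 rats, which did not (permutation adjusted p 0.24, 0.24, 0.12 and 0.98). With quantile normalization of the OSCC levels it was 0.71, 0.58, 0.35, 0.68 and 0.12 for Klk6, Klk7, Klk8, Klk10 and Klk11 over 10 pieces, and none passed.

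In normal pieces Klk6, Klk7, Klk8 and Klk10 did follow the squamous differentiation genes, in a comparison chosen after seeing the data. Over 11 normal pieces, whose differentiation mean ran from 1.06 to 3.70, Klk6 followed the differentiation genes with r of 0.93 (permutation p = 7e-05, adjusted over 13 relations 0.00091; rho 0.86, adjusted 0.013) and Klk8 with r of 0.86 (permutation p = 0.00088, adjusted 0.0038; rho 0.83, adjusted 0.013). For Klk7 r was 0.96 over 9 pieces (permutation p = 0.00039, adjusted 0.0025; rho 0.88, adjusted 0.013) and for Klk10 0.96 over 6 (permutation p = 0.011, adjusted 0.035; rho 0.83, adjusted 0.11), because the rest lay across a gap. Without the 2 pieces farthest from the median, r was 0.89 for Klk6, 0.98 for Klk7, 0.80 for Klk8 and 0.96 for Klk10. The 2 pieces were taken from 11 for Klk6 and Klk8, from 9 for Klk7 and from only 6 for Klk10, whose value therefore says little. Klk6 was not well above background in the normal pieces of animals 11, 21, 22, 24 and 25. These pieces had the lowest differentiation means (1.06 to 2.12), so the lower end of the Klk6 relation rests on background readings. Klk11 stood at 0.34 over 11 pieces (permutation, adjusted p = 0.35; rho 0.26). With gland genes no normal relation passed (r 0.70 for Klk6 over 10 pieces, permutation adjusted p = 0.055), and the gland mean of normal pieces, from -4.22 to -3.55, was close to background. With squamous basal genes r was -0.55 for Klk6, -0.83 for Klk7, -0.10 for Klk8 and 0.44 for Klk11 in normal pieces, and none passed (permutation, adjusted p from 0.055 to 0.83). Whether r differs between normal and OSCC pieces was not tested, and the share of epithelium in a normal piece cannot be told apart from the state of that epithelium.

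**Figure D4:**
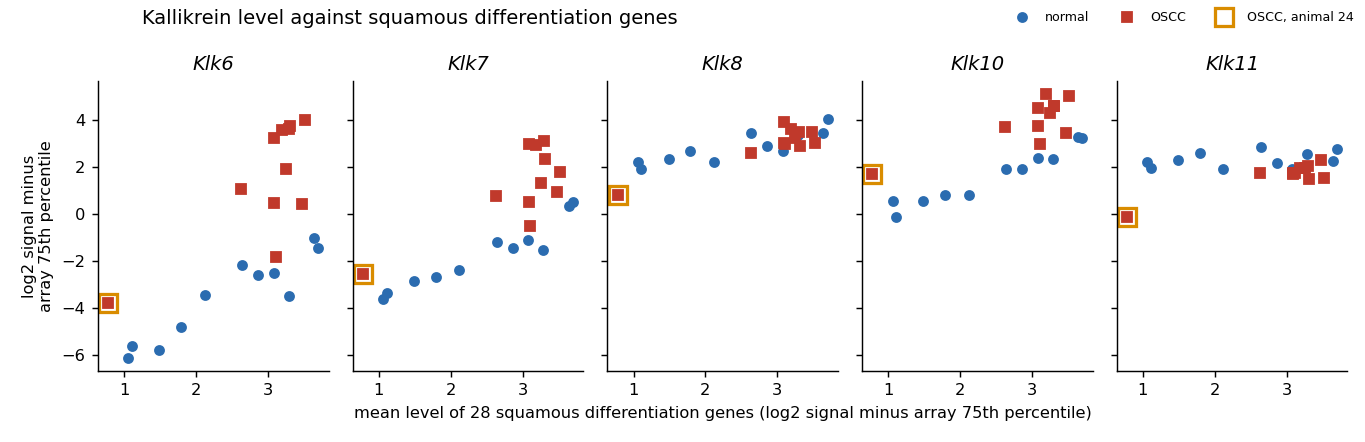
Level of each gene (vertical axis, log2 signal minus the 75th percentile of the array) against the mean level of 28 squamous differentiation genes (horizontal axis, same scale) in 11 normal pieces (blue circles) and 11 OSCC pieces (red squares); the box marks the OSCC piece of animal 24. Klk6, Klk7, Klk8 and Klk10 climb with differentiation genes among normal pieces (r 0.86 to 0.96), and for Klk6, Klk7 and Klk10 most OSCC pieces lie above normal pieces of like differentiation level. In the normal pieces of lowest differentiation level Klk6 was not well above background.

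The members also followed each other in part. Among 10 OSCC pieces Klk6 and Klk10 varied together (r = 0.96, permutation p = 6e-05, adjusted over 10 relations 0.0006; rho 0.92, adjusted 0.0047), and r stayed at 0.92 without the 2 pieces farthest from the median. Klk6 and Klk7 had r of 0.91 (permutation p = 0.00042, adjusted 0.0021; rho 0.76, adjusted 0.052; 0.85 without 2 pieces) and Klk7 and Klk10 had r of 0.86 (permutation p = 0.0022, adjusted 0.0073; rho 0.76, adjusted 0.052; 0.76 without 2 pieces). Klk8 and Klk11 had r of 0.49 with each other (adjusted 0.31, permutation), and Klk11 had r of -0.21, 0.03 and -0.21 with Klk6, Klk7 and Klk10. The OSCC levels of the 3 called members were low in animals 24 and 22 and high in animals 9 and 16. For the within-rat differences between OSCC and normal, Klk6 and Klk10 no longer passed (r 0.65 over 10 rats, permutation adjusted p = 0.095), Klk6 and Klk7 and Klk7 and Klk10 did (0.90 and 0.79, adjusted 0.0006 and 0.023, permutation), and Klk8 passed with Klk10 (0.89 over 9 rats, permutation adjusted p = 0.0018).

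Genes most like each member over all 11 OSCC arrays were taken from 11260 genes, as a description with no test and with the low piece of animal 24 included. For Klk6 they were Klk10 (r 0.98), Rbp2 (0.98), Pcdh17 (0.96), Defb14 (0.96) and Tmprss11b (0.96), among them a beta-defensin and a membrane-bound protease. For Klk10 they were Klk6 (0.98), Cdh1 (0.97), the epithelial cadherin, Fam108c1 (0.96), Sprr1al (0.96) and Tmprss11b (0.96). For Klk7 they were Gpr17, Atp6v1b2, Insl3, Rgs20 and Klk12 (0.96 to 0.97). For Klk8 they were Ephb6 (0.96), Defb5, Tmprss11d, Grb7 and Serpinb10 (0.93), and for Klk11 Krt10 (0.95), a keratin of cornifying epithelium, Fbxw4, Myo6, Klf4 and Defb5 (0.92).

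Klk6 and Klk10 had the highest r of any members among OSCC pieces, and why they varied together was not tested. The 250 bases before the annotated start of each are shown, on the + strand of assembly GRCr8, from RefSeq. Klk6 is at chr1:103415266-103415515 and Klk10 at chr1:103371388-103371637. Capitals mark matches to 4 motifs searched on both strands, TATAAA (the TATA box), TGANTCA (AP-1), AACNGGTT (grainyhead) and GGGCGG (the GC box).
Klk6: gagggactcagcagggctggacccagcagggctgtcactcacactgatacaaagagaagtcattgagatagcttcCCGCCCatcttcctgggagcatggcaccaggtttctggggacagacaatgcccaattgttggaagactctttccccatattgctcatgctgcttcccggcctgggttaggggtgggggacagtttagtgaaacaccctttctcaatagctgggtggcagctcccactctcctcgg
Klk10: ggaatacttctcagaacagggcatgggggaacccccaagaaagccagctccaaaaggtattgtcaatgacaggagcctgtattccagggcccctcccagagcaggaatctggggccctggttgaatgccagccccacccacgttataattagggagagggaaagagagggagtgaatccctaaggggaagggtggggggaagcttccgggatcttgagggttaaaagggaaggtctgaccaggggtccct
Klk6 holds 1 GC box, which reads CCGCCC on this strand and starts 175 bases before the gene start, and Klk10 holds no match to any of the 4. The upstream windows of Klk7 and Klk11 hold none either, and Klk8 had no entry in the table. Among 33469 promoter windows of the same length, TATAAA was found in 12.9%, TGANTCA in 6.34%, AACNGGTT in 1.76% and GGGCGG in 30.5%. These are matches of letters only, and the promoters were not measured here.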

How the data were processed

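Total RNA of 11 OSCC and 11 normal tongue pieces had been hybridized to Agilent rat 4x44K arrays. The authors read the arrays with Agilent Feature Extraction 9.5.3.1, and the deposited intensity is the processed signal, background-subtracted and linear. A table of the same signal as a ratio to the 75th percentile of its array was also deposited by the authors (99.97% of values at or above 0.5 equal within 2%) and was an alternative. Probe positions are of rn4.

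Control spots and 9196 outlier spots (0.975%) were left out, the spots of each of 30367 probes averaged as log2 values, and the 75th percentile of the array subtracted. OSCC and normal were compared with limma 3.58.1 (R 4.3.3), with rat as a block because both pieces came from 1 animal; the deviations of the pieces of a rat correlated between -0.21 and 0.24 (median -0.02). Where a gene was well above background on no array of a tissue, the fold is a lower limit against the lowest signal well above background of each array. Correlations used 1e+05 permutations. The tests were checked on simulated data. Precision is limited by the number of arrays. Current names came from RefSeq (GRCr8), which gave 17673 probes a symbol. A list gene was matched by current symbol and then by array name.

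The genes described are the members, the other named kallikreins, every called gene of the inhibitor, activator and substrate lists, up to 4 called genes of each squamous and gland list with the largest change, and the 5 genes most like each member. A gene that this rule names is not reported here. Members and lists were chosen with earlier results of these data known. Alternatives changed the scaling, background correction, filter, scan day, slide, block, test and animals.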

Additional observations from a re-analysis of the deposited data

How the results depend on the processing

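Across scalings, filters, tests and left-out animals, Klk6, Klk7 and Klk10 stayed called and higher, except with scan day as a term, where Klk6 was 5.19, Klk7 2.72 and Klk10 1.64 and the number of members called was 0 (3 at unadjusted p and 2-fold). Klk8 turned to -0.03 with median scaling and -0.34 with scan day. In the paired design the fit with no replicate block gave 5.03, 2.99, 0.17, 2.36 and -0.67 for Klk6, Klk7, Klk8, Klk10 and Klk11 and changed no call of a member. Leaving out each animal gave 4.58 to 5.43 for Klk6, 2.77 to 3.27 for Klk7, 0.06 to 0.37 for Klk8, 2.19 to 2.51 for Klk10 and -0.75 to -0.47 for Klk11. Over all genes the number called was 4201, against 1628 with normexp, 3 with scan day (9578 unadjusted) and 6924 without animals 21, 22 and 24. Called other kallikreins numbered 7, but 4 with normexp and 0 with scan day (7 unadjusted).

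With scan day 0 genes were called in each of the inhibitor, activator, substrate, squamous differentiation, basal, junction and gland lists, against 4, 2, 4, 1, 2, 1 and 17 unadjusted in that order. With slide as a random block the counts were 2 inhibitors, 0 differentiation, 2 basal, 2 junction and 9 gland genes. With only the pairs scanned on different days they were 3 inhibitors, 2 basal and 10 gland genes. Normexp left 3 substrates, the methods' t-test after adjustment 3 differentiation and 2 basal genes, and 8 basal genes were called without animals 21, 22 and 24. The cause was not tested.

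The difference of Klk7 and Klk10 was -0.17 with normexp and 0.78 (adjusted exact permutation p = 0.0312) without animals 21, 22 and 24, and 0.44 to 0.76 on leaving out each animal; it passed without animal 4 (0.72), 22 (0.71) or 24 (0.76).

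Relations among OSCC pieces depended on animal 24. With all 11 pieces r with differentiation genes was 0.73 (Klk6), 0.75 (Klk7), 0.90 (Klk8), 0.79 (Klk10) and 0.90 (Klk11), with basal genes 0.87, 0.83, 0.66, 0.84 and 0.60, and with gland genes -0.04 (Klk7), -0.07 (Klk8), -0.06 (Klk10) and -0.05 (Klk11); Klk6 and Klk11 had 0.58 and Klk10 and Klk11 0.64. With within-rat differences r with gland genes was -0.29 (Klk7), -0.24 (Klk8) and -0.59 (Klk10), with differentiation genes 0.92 for Klk10 (which passed, permutation adjusted p = 0.015) and with basal genes -0.17 for Klk10; Klk7 and Klk11 had -0.01, Klk10 and Klk11 0.45. Without animals 21, 22 and 24 basal genes gave -0.28 (Klk7) and -0.22 (Klk10), differentiation genes -0.49 (Klk8), and Klk8 and Klk10 -0.05; Klk7 and Klk10 no longer passed (0.23). Quantile normalization gave 0.14 for Klk8 and basal genes, and scan day 2 alone -0.12 for Klk7 and Klk11. In normal pieces, an alternative chosen after seeing the data, r was 0.70 (Klk6 with gland genes), 0.93, 0.96, 0.86 and 0.96 (Klk6, Klk7, Klk8 and Klk10 with differentiation genes), -0.55, -0.83 and 0.44 (Klk6, Klk7 and Klk11 with basal genes), 0.30 (Klk6 and Klk11) and 0.07 (Klk10 and Klk11).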

Other observations

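Lists of cell types that a tongue piece can hold were counted in the same limma fit. All 12 neutrophil genes rose, as did 7 of 10 macrophage, 5 of 8 B and plasma cell, 7 of 10 T cell and 7 of 10 fibroblast genes, and none of these fell. None of 10 endothelial genes was called (median difference -0.39). Of 12 skeletal muscle genes 8 fell and 1 rose, and of 16 genes of hair and filiform papillae 14 fell. Of 5 keratins of simple epithelium 4 rose. All 9 genes of a serous gland list rose, and that list was chosen by the study on these samples, so its direction is not independent evidence. The study also tabulated the 5 simple keratins as rising and most of the hair and papilla genes as falling in these samples. The directions of these lists are therefore not independent evidence either. Among the hair and papilla genes that fell, Hoxc13 was well above background on no array.

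Probes of cluster kallikreins outside the naming rule were looked at after their values were seen. Ton, whose accession is now Klk1c2, differed by 2.11 ± 0.60 (SE, limma adjusted p = 0.016), higher in 9 of 11 rats. Probes described as glandular kallikrein-3 and as a kallikrein fragment differed by 2.40 ± 0.62 (0.0099) and 2.01 ± 0.32 (0.00077). The fragment was well above background on no normal array. Klks3 (-0.62 ± 0.23, 0.047) and Gk11 (0.40 ± 0.22, 0.15) were not called. A probe that the array describes as similar to kallikrein 5, between Klk6 and Klk4 on the chromosome, differed by -0.47 ± 0.44 (0.39), and was well above background in all 22 pieces.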
